A study of Drosophila melanogaster with 30 samples.

Results

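The mitochondrial ribosomal protein genes of *Drosophila melanogaster* were followed through the growth of the lymph gland, into the circulation and through wasp infestation. They were taken by name alone, as every gene in the deposited tables whose symbol begins with mRpL (large subunit) or mRpS (small subunit). This gave 72 of the 16322 genes listed in any table, 46 by their symbol of the large and 26 of the small subunit, and all 72 were listed in each of the 30 tables. The lymph gland is the larval organ in which blood cells, the hemocytes, form. Single cells were profiled by Drop-seq, a droplet method that counts each captured transcript once by a unique molecular identifier (UMI). All larvae were of the Oregon-R strain, with no transgene or mutation named in the labels, and ages are in hours after egg laying (AEL).

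The 30 libraries fell into 8 conditions. Lymph glands of larvae infested at 72 h AEL by *Leptopilina boulardi*, a wasp that lays its egg into the larva, gave 4 libraries at 96 h AEL. Lymph glands of normal larvae gave 5 libraries at 72 h, 5 at 96 h and 4 at 120 h AEL. Circulating hemocytes of infested larvae gave 3 libraries at 96 h and 3 at 120 h AEL, and those of normal larvae gave 3 at each of the same ages. Each gland library pooled the primary lobes of many larvae, so that the spread between libraries is one between pools of animals. How the circulating hemocytes were collected for Drop-seq is not given in the sources used here, which describe bleeding after vortexing with glass beads for staining only.

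Mitochondria carry a ribosome of their own, which makes the few proteins that the mitochondrial genome encodes, all of them subunits of the respiratory chain and the ATP synthase. Its RNAs come from the mitochondrial genome, while all its proteins are encoded in the nucleus, made in the cytosol and imported. As in bacteria, the small subunit reads the mRNA and the large subunit joins the amino acids. In flies, loss of single proteins of it, such as mRpL12 or bonsai, impairs growth. The proteins of the cytosolic ribosome, a separate machine, are encoded by other genes.

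After filtering, 48370 cells were kept, and a library held 1229715 to 33310323 UMIs, fewest in normal circulation at 96 h AEL. The 72 members together had 4683 to 113928 UMIs in a library, and no member had fewer than 24 UMIs in any of them. The tables of infested glands had been filtered before deposit and lack 541 genes, none of them a member. In normal glands of 96 h AEL those genes held 2.11 to 2.29% of UMIs, and levels in infested glands are shares without them. Glands of normal larvae had 3633 to 7448 CPM of the prohemocyte markers (CPM, UMIs of a gene or list per 1000000 UMIs of its library), and lamellocyte markers reached 12008 to 16660 CPM in infested circulation at 120 h AEL against 411 to 959 CPM in normal circulation. In 1 library of normal circulation at 96 h AEL 39 of 421 kept cells, and in 1 at 120 h AEL 42 of 668, had a barcode that another library also held, while every other library had at most 15 such cells. Without those cells no summed level moved by more than 1 SD and no count of called members by more than 1.5 times.

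Averaged over the 30 libraries, 40 genes lay at 10 to 50 CPM, 31 at 50 to 100 CPM, and only mRpL33, the counterpart of a small bacterial large-subunit protein, lay above that, at 122.6 CPM or 3.36% of the summed level. mRpL12, the protein of the flexible stalk that receives the translation factors, averaged 95.1 CPM, and mRpL44, which in mammals has an RNase III-like fold, was the lowest at 22.1 CPM. Drop-seq reads the ends of transcripts, so these levels were not divided by gene length. Of the 72 genes, 41 overlap a gene on the other strand and 2, mRpL13 and mRpS14, overlap a gene on the same strand. Whether counting used the strand is not given in the sources used here, so that reads of such pairs cannot be told apart.

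The summed level of the 72 genes, as a share of all UMIs of a library, was highest in infested glands, where it averaged 4668 ± 209 CPM (SD, n = 4), 1.2 times that of normal glands of the same age. It averaged 3350 ± 309 CPM in normal glands at 72 h AEL, 3903 ± 230 CPM at 96 h and 2590 ± 175 CPM at 120 h (SD, n = 5, 5 and 4). Infested circulation averaged 4339 ± 651 CPM against 3149 ± 588 CPM in normal circulation at 96 h AEL, and 3676 ± 375 CPM against 3594 ± 239 CPM at 120 h (SD, n = 3 each).

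**Figure D1:**
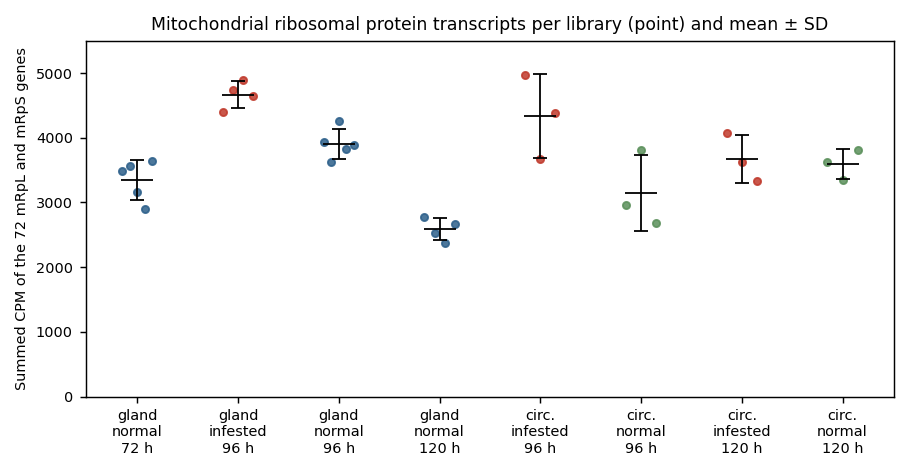
Summed level of the 72 mitochondrial ribosomal protein genes (y axis, CPM, from 0) in the 8 conditions (x axis). Each point is a library, and the bars give mean ± SD; normal glands at 120 h AEL hold the 4 lowest gland libraries (2381 to 2782 CPM) and infested glands the 4 highest (4397 to 4899 CPM).

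Library by library, infested glands had 4397, 4732, 4899 and 4642 CPM, all above the normal glands of 96 h AEL. Normal glands had summed levels of 3494, 3558, 3160, 2902 and 3637 CPM at 72 h AEL, 3929, 3620, 4255, 3826 and 3887 CPM at 96 h, and 2782, 2524, 2381 and 2673 CPM at 120 h. The values of 72 and 96 h overlapped, in that a single 96 h library lay below the highest of 72 h, whereas all 4 libraries of 120 h lay below every earlier one. The ratio of means was 1.17 for 96 against 72 h, 0.664 for 120 against 96 h and 0.773 for 120 against 72 h. No test was made on the sums.

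The large-subunit sum was 1.92 to 2.06 times the small-subunit sum in the means of the 8 conditions. Relative to the nuclear genes of the respiratory chain, which the same organelle needs, the members kept a ratio of 0.167 in normal glands at 72 h, 0.179 at 96 h and 0.169 at 120 h AEL. Set against the proteins of the cytosolic ribosome, the members' sum was 1.39% in infested glands, and 0.894% at 72 h, 1.06% at 96 h and 0.670% at 120 h AEL in normal glands. The cytosolic ribosomal protein genes themselves summed to 377288, 367785 and 387861 CPM at 72, 96 and 120 h AEL, so that they were the larger share of the RNA throughout and did not follow the members.

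Growth of the gland between 72 and 120 h AEL was not measured in the tables, so genes that dividing and growing cells use were set beside the members. By the study's own counts, the median number of cells in a lobe rose from 72 to 96 h and again to 120 h AEL. The lists are shares of UMIs and do not measure that growth. Genes of DNA replication summed to 1193, 1452 and 789 CPM at 72, 96 and 120 h AEL, and those of mitosis to 920, 1112 and 534 CPM. By mean, both lists were highest at 96 h and lowest at 120 h, like the members, with ratios of 0.543 and 0.481 for 120 against 96 h. In both lists libraries of 120 h lay below all those of 96 h. Unlike the members, both lists at 72 h overlapped those at 120 h as well as at 96 h. Genes listed for ribosome biogenesis, the building of the cytosolic ribosome, had 3779, 3284 and 2047 CPM, highest at 72 h. That list also holds kra and Rtf1, whose role in it is not shown here. The nuclear respiratory chain genes had 20054, 21785 and 15360 CPM, and the factors of mitochondrial translation 446, 498 and 377 CPM, both with the members' order of ages. Transcripts of the mitochondrial genome had 44746, 38342 and 31473 CPM, highest at 72 h. The lists rest on the same 14 libraries as the members, and the cell types of the gland change over the same ages.

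**Figure D2:**
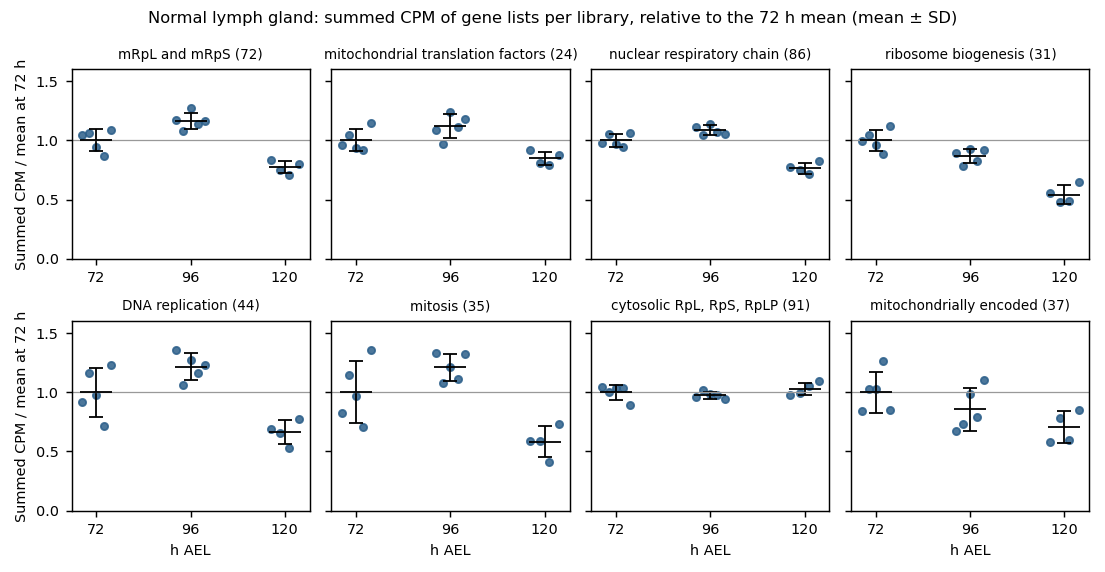
Summed level of 8 gene lists in normal glands (y axis, relative to the mean at 72 h AEL) against age (x axis, h AEL). Points are libraries. By mean, the mitochondrial ribosomal protein genes, DNA replication and mitosis are highest at 96 h and lowest at 120 h, ribosome biogenesis and mitochondrially encoded genes decline from 72 h, and cytosolic ribosomal proteins stay near 1.

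Gene by gene, the pattern in CPM was broad. Of the 72 members, 66 had their highest mean CPM at 96 h AEL, 6 at 72 h and 0 at 120 h, and 68 had their lowest mean at 120 h. No share over all genes is given for this order. The 6 that were highest at 72 h were mRpL1, mRpL3, mRpL55, mRpS5, mRpS22 and mRpS31. Fold changes below come from a test on summed UMIs per library (edgeR's quasi-likelihood test, Benjamini-Hochberg adjustment over all genes tested, called at 0.05). Their scaling by TMM holds the median of all genes near 0. On library totals alone that median moved to 0.16 for 96 against 72 h AEL, −0.15 for 120 against 96 h, 0.15 for infested glands, −0.19 and −0.16 for infested circulation at 96 and 120 h, and 0.47 and 0.58 for circulation against gland at 96 and 120 h, all on the log2 scale. The counts of highest and lowest means include that shift. With TMM 52 of 72 members' estimates were above 0 for 96 against 72 h, and 71 below 0 for 120 against 96 h.

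From 72 to 96 h AEL few members changed. 4 rose and 2 fell. Of the 7740 genes tested 9.64% rose, 10.2% fell and 19.8% were called in either direction, and the median log2 fold change of the members was 0.12 beside 0.02 for all genes. mRpL21 had 69.4, 65.8, 79.0, 66.0 and 64.7 CPM at 96 h AEL, against 51.2, 46.1, 41.2, 42.6 and 57.9 CPM at 72 h. Its groups did not overlap (log2 fold change 0.39 ± 0.10 SE, adjusted p = 0.00998). mRpL50 had 30.4, 26.8, 31, 27.0 and 31.4 CPM at 96 h, against 22.7, 23.7, 14.1, 15.7 and 19.0 CPM at 72 h, again with every 96 h library higher (0.45 ± 0.14, adjusted p = 0.0366). mRpS33 and mRpL41 also rose, by 0.37 and 0.34 on the log2 scale. mRpL1, of the stalk that guides spent tRNAs out, fell by 0.30 ± 0.09 (adjusted p = 0.0306), and mRpS22 fell by 0.34 ± 0.10 (adjusted p = 0.0326), although the libraries of the 2 ages overlapped in both. The stalk protein mRpL12 averaged 112.5 ± 7.3 CPM at 96 h and 86.7 ± 13.2 CPM at 72 h and missed the threshold (0.24 ± 0.08, adjusted p = 0.0602).

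These 6 calls depended on the scaling and on single libraries. On library totals 19 members were called, all higher at 96 h, where 15.5% of all genes were called higher. The count was 3 without library 2 or library 5 of 72 h AEL, 3 without library 1, 4 or 5, 1 without library 2 and 2 without library 3 of 96 h, and 10 without library 4 of 120 h, which shares the estimate of the spread. Of the other lists, 4 of 44 DNA replication genes and 1 of 35 mitosis genes rose and none fell, 9 of 31 ribosome biogenesis genes fell and none rose, and 0 of 24 mitochondrial translation factors were called in either direction.

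From 96 to 120 h AEL 58 of the 72 members fell and 0 rose, 39 of the large and 19 of the small subunit. Of the 7740 genes tested 20.3% fell, and 42.3% were called in either direction. The members' median was −0.42 beside 0.00 for all genes, and 71 of 72 estimates were below 0, the exception being mRpL24 (0.08), chosen after its value was seen. Leaving out 1 library gave 52 to 61 calls, library totals gave 65, where 24.9% of all genes were lower, and 33 were called without the low-count filter, all lower at 120 h. All 3 other genes listed for the mitochondrial ribosome under different names fell, tko by 0.49, bonsai by 0.50 and CG4866 by 0.63 (adjusted p = 6.7e-04, 0.0019 and 0.00125).

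The largest falls were those of mRpL34, mRpS10, mRpL36 and mRpS30. mRpL34 and mRpL36 are counterparts of small proteins of the bacterial large subunit, mRpS10 belongs to the head of the small subunit, and the mammalian counterpart of mRpS30 sits in the large subunit, although its symbol counts it with the small one here. mRpL34 (FBgn0083983) lies on the release 6 assembly at chromosome arm 2R, 16098948 to 16099337, plus strand, with CG8414 overlapping it on the other strand. mRpL36 (FBgn0042112) is at 3L, 8124584 to 8125132, minus strand, mRpS10 (FBgn0038307) at 3R, 15229665 to 15230516, plus strand, and mRpS30 (FBgn0030692) at X, 15786047 to 15788288, plus strand. No other annotated gene overlaps the last 3.

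mRpL34 had 19.6, 26.6, 21.9 and 31.3 CPM at 120 h AEL, against 57.8, 51.0, 56.4, 58.9 and 73.1 CPM at 96 h. The highest 120 h library lay well below the lowest of 96 h (−1.11 ± 0.14, adjusted p = 1.78e-05). mRpL36 had 33.2, 31.9, 32.0 and 39.5 CPM at 120 h, against 67.1, 65.9, 77.3, 69.9 and 64.8 CPM at 96 h, also without overlap (−0.87 ± 0.11, adjusted p = 1.6e-05). mRpS10 had 32.8, 24.6, 23.1 and 28.2 CPM at 120 h, against 57.6, 52.5, 63.3, 54.7 and 53.6 CPM at 96 h. It fell by 0.91 ± 0.09 (adjusted p = 2.9e-06), again without overlap. mRpS30 averaged 21.0 ± 2.7 CPM at 120 h and 41.3 ± 4.6 CPM at 96 h and fell by 0.83 ± 0.09 (adjusted p = 6.68e-06).

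Of 10 members chosen by their role, 8 fell. mRpL12 (FBgn0011787, 3L, 8956791 to 8957584, plus strand, no overlapping gene) had 72.4, 68.8, 62.6 and 68.7 CPM at 120 h AEL, against 117.4, 102.7, 121.6, 111.5 and 109.2 CPM at 96 h (−0.58 ± 0.09, adjusted p = 9.97e-05). All 4 late libraries were lower. mRpL10, which anchors the stalk, fell by 0.39, mRpL2 of the peptidyl transferase centre by 0.39, mRpL4 of the exit tunnel by 0.42, mRpS7 of the small-subunit head by 0.40, mRpL44 by 0.52, mRpL39 by 0.25 and mRpS29 by 0.37. mRpS29 is the fly counterpart of human DAP3, a GTP-binding protein of the small subunit. The remaining pair did not pass the test: mRpS5, on the side where the mRNA enters, had 43.0 ± 9.0 CPM at 120 h and 49.8 ± 12.2 CPM at 96 h (adjusted p = 0.798), and mRpL11 of the GTPase-associated centre 17.7 ± 1.7 and 22.5 ± 2.2 CPM (adjusted p = 0.109).

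Genes that dividing and growing cells use fell over the same step, relative to other genes. Of DNA replication genes 39 of 44 fell and none rose, of mitosis genes 32 of 35 fell, and of ribosome biogenesis genes 26 of 31 fell and 1 rose. Among mitochondrial lists, 39 of 65 respiratory chain genes and 10 of 13 genes of protein import fell. Of translation factors 5 of 24 fell, a share near that of all genes tested. None rose in any of the 3 lists. Of cytosolic ribosomal protein genes 21 of 86 were higher and 1 lower. The share of these genes called higher was near that of all genes tested. The list medians were −0.90 for replication, −0.94 for mitosis, −0.83 for ribosome biogenesis, −0.32 for the respiratory chain, −0.28 for translation factors and 0.24 for cytosolic ribosomal proteins. Prohemocyte markers summed to 4841 to 7448 CPM at 120 h and 3633 to 4393 CPM at 96 h AEL, and their part in these differences was not tested. These sums are shares of RNA and not of cells. By the study's clusters, prohemocytes were a smaller share of cells at 120 than at 72 h AEL.

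Over the whole period 42 of 72 members were lower at 120 than at 72 h AEL and 0 higher, 26 of the large and 16 of the small subunit. Of all genes 24.6% were lower and 50.5% called, and the members' median was −0.32. Without the low-count filter 20 were called lower. mRpL34 had 59.1, 63.5, 53.7, 50.3 and 59.3 CPM at 72 h, about as at 96 h, and fell by 1.2 ± 0.14 (adjusted p = 4.95e-06). mRpL1 had 22.9, 20.8, 19.9 and 25.1 CPM at 120 h, against 43.1, 51.5, 46.0, 33.2 and 53.1 CPM at 72 h (−1.01 ± 0.10, adjusted p = 5.97e-07), and mRpS31 averaged 22.5 ± 2.7 and 46.0 ± 7.4 CPM (−1.02 ± 0.11, adjusted p = 1.14e-06). In neither gene did the ages overlap. mRpL10 and mRpL11, at −0.16 and 0.02, did not pass the test.

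**Figure D3:**
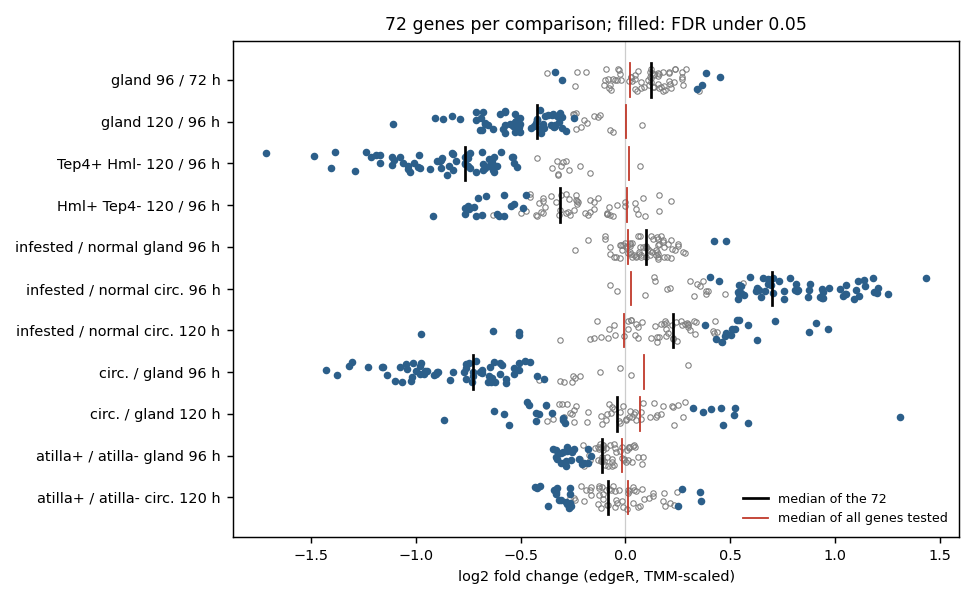
Log2 fold change (x axis) of each of the 72 genes in 11 comparisons (y axis). Filled points passed the adjusted threshold of 0.05, black bars are the median of the 72 genes and red bars that of all genes tested; the 58 filled points of 120 against 96 h AEL all lie below 0, and the 55 of infested circulation at 96 h AEL all above.

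In glands of infested larvae, 2 members rose and 0 fell relative to normal glands at 96 h AEL, where 7.94% of the 7315 genes tested rose and 17.4% were called. mRpS14 had 72.2, 79.2, 95.5 and 96.3 CPM in infested glands, against 54.2, 46.0, 58.1, 55.7 and 59.1 CPM in normal glands (0.48 ± 0.10, adjusted p = 0.00802). mRpL18 had 55.6, 70.6, 76.9 and 74.3 CPM, against 46.5, 41.2, 53.2, 45.1 and 43.9 CPM in normal glands (0.42 ± 0.10, adjusted p = 0.016). The infested libraries were higher throughout in both genes, but mRpS14 shares sequence on its own strand with CG32533 and mRpL18 is overlapped by ox on the other strand. The members' median of 0.10 stood beside 0.01 for all genes. Because TMM removes a shift of all genes, the higher summed level of infested glands appears here only in part, and on library totals 20 members were called higher and none lower. Of all genes 17.8% were called higher on library totals. With TMM the count was 4 without infested library 1, 1 without infested library 3 and 4 by DESeq2. Of the genes under other names, bonsai and CG4866 gave 0.0018 and 0.10 and were not called, and tko is listed in 0 of the 4 infested tables.

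mRpL12 averaged 124.0 ± 3.4 CPM in infested and 112.5 ± 7.3 CPM in normal glands and was not called (−0.03 ± 0.07, adjusted p = 0.826). Over the same comparison 42 of 85 cytosolic ribosomal protein genes fell and none rose (list median −0.29), and 5 of 30 ribosome biogenesis genes rose. Lamellocyte markers summed to 1199 to 1934 CPM in infested and 281 to 474 CPM in normal glands, and crystal cell markers to 270 to 367 and 1230 to 2391 CPM, and their part was not tested.

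In circulation at 96 h AEL, 55 of 72 members were higher in infested than in normal larvae and 0 lower, 32 of the large and 23 of the small subunit, where 18.7% of the 7573 genes tested were higher and 35.4% were called. The members' median was 0.70 beside 0.02 for all genes. mRpL51 (FBgn0032053, 2L, 8516753 to 8517380, minus strand, overlapped by PIG-U on the other strand) had 94.5, 75.9 and 95.4 CPM in infested and 36.8, 48.0 and 31.7 CPM in normal circulation, without overlap (1.44 ± 0.19, adjusted p = 4.48e-04). mRpS10 had 85.9, 60.7 and 75.5 CPM against 37.6, 48.0 and 27.8 CPM (1.2 ± 0.19, adjusted p = 0.00131). mRpL48 and mRpS11 rose by 1.25 and 1.2. In all 4 genes, picked as the largest called rises of this comparison, each infested library lay above each normal one. That choice favours genes without overlap.

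Of the members chosen by role, mRpL2 rose by 1.05, mRpL39 by 1.05, mRpL4 by 0.94, mRpL10 by 0.76, mRpL12 by 0.73 and mRpS29 by 0.67. mRpL12 nonetheless overlapped, with 119.7, 90.7 and 107.7 CPM against 69.7, 97.6 and 58.2 CPM. mRpL44, mRpS5, mRpS7 and mRpL11 gave 0.39, 0.21, 0.39 and 0.31 and did not pass the test. mRpL34 averaged 69.8 ± 28.4 CPM in infested and 71.6 ± 10.7 CPM in normal circulation (adjusted p = 0.581). Leaving out 1 library gave 38 to 56 calls, and library totals gave 26, all higher in infested larvae, where 8.81% of all genes were higher.

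The 2 sets of circulating libraries differed in more than infestation. Prohemocyte markers summed to 2431 to 3285 CPM in infested and 577 to 717 CPM in normal circulation, plasmatocyte markers to 1551 to 3354 and 13418 to 23732 CPM, crystal cell markers to 210 to 926 and 2197 to 13003 CPM, and fat body markers to 0 to 0.995 and 26.0 to 886 CPM. In infested circulation 15.6 to 25.3% of cells had Tep4 but no Hml UMIs, against 0.222 to 0.614% in normal circulation. The part of these in the members' difference was not tested across cell types. Among Hml+ Tep4- cells alone, 32 members were higher in infested larvae and 0 lower (12.4% of genes higher, 25.6% called, median 0.68), with 2 infested and 3 normal libraries, since infested library 1 held only 10 such cells. That count was 17 without normal library 1, 19 without normal library 3, 21 without infested library 2, 7 without infested library 3 and 17 on library totals. mRpL46 averaged 73.8 ± 5.8 CPM in infested and 31.2 ± 2.1 CPM in normal Hml+ Tep4- cells (1.41 ± 0.19, adjusted p = 6.03e-04).

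In circulation at 120 h AEL calls went both ways. 16 members were higher and 4 lower in infested larvae, where 23.5% of genes were higher, 23% lower and 46.5% called, so that the share of members called higher was near that of all genes. By these calls the members were not set apart, and the median was 0.22 beside −0.01 for all genes. mRpL35 (FBgn0038923, 3R, 22023527 to 22024341, plus strand, overlapped by CG6028 on the other strand) had 76.7, 75.5 and 67.3 CPM in infested and 39.1, 39.9 and 46.2 CPM in normal circulation (0.96 ± 0.14, adjusted p = 3.08e-04). mRpL10 had 66.2, 60.5 and 50.7 CPM against 32.0, 35.1 and 37.7 CPM (0.91 ± 0.19, adjusted p = 0.00234). These values did not overlap, nor did those of mRpL22 of the exit tunnel (94.3 ± 20.0 and 57.2 ± 11.9 CPM) or of mRpS25 (69.4 ± 10.0 and 47.0 ± 5.5 CPM).

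The 4 that fell were mRpL34, mRpL1, mRpL33 and mRpS5. mRpL34 had 45.6, 34.9 and 40.0 CPM in infested and 95.6, 74.9 and 92.1 CPM in normal circulation (−0.98 ± 0.18, adjusted p = 0.00105). mRpL1 had 26.3, 22.3 and 24.4 CPM against 37.0, 41.9 and 46.8 CPM (−0.63 ± 0.16, adjusted p = 0.00677). mRpL33 and mRpS5 each fell by 0.51. In all 4 genes, picked by the same calls, every infested library lay below every normal one. Library totals called 4 higher and 4 lower (16.8% and 25.6% of all genes). The 20 calls dropped to 10 without normal library 1, 9 without normal library 2, and 8, 7 and 12 without infested library 1, 2 or 3.

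Lamellocyte markers summed to 12008 to 16660 CPM in infested and 411 to 959 CPM in normal circulation at this age, and plasmatocyte markers to 1224 to 2119 and 11632 to 21824 CPM, and their part was not tested. Of mitosis genes 27 of 35 fell and 1 rose, and of replication genes 14 of 44 fell and 2 rose. Of the 86 respiratory chain genes listed 7 rose and 6 fell, each a smaller share than among all genes tested. Within Hml+ Tep4- cells 5 members rose and 1 fell (14% of genes rose, 16.9% fell and 30.9% were called). With class status called on cells thinned to 2000 UMIs, and members counted on all UMIs, 1 rose and 2 fell. mRpL34 averaged 49.6 ± 10.1 CPM in infested and 88.9 ± 9.2 CPM in normal cells of that class (−0.92 ± 0.18, adjusted p = 0.00267), and mRpL35 77.5 and 39.5 CPM. That count of 6 was 10 without normal library 2 of 96 h, and 3 without normal library 2 or infested library 1 or 2 of 120 h AEL.

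The effect of infestation was lower at 120 than at 96 h AEL in 13 members and higher in 0, by the interaction of infestation and time (5.28% of genes lower, 7.18% higher and 12.5% called, median −0.48). For mRpL51 the difference of effects was −1.24 ± 0.26 (adjusted p = 0.0119), for mRpL34 −1.11 ± 0.25 (adjusted p = 0.0164) and for mRpL36 −1.0 ± 0.24 (adjusted p = 0.0241). For mRpL35 and mRpL10 it was −0.15 and 0.15 and did not pass the test. This count rested on most of the single libraries and on the scaling and the filter. It was 2 on library totals, 2 without the low-count filter, 12 to 19 with DESeq2, its size factors and the settings on cells, 18 without normal library 2 of 96 h, 2 without normal library 1 or 3 of 96 h, 4 and 3 without infested library 2 or 3 of 96 h, 2, 4 and 4 without normal library 1, 2 or 3 of 120 h, and 6, 1 and 2 without infested library 1, 2 or 3 of 120 h AEL.

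Circulating cells of normal larvae stood below the gland at 96 h AEL in 61 of 72 members and above it in 0, where 22.8% of the 8451 genes tested were lower and 49.7% called (median −0.73 beside 0.09 for all genes). On library totals 32 were lower and 2 higher, where 9.47% of all genes were lower and 41.5% higher. mRpL51 averaged 38.8 ± 8.3 CPM in circulation and 79.1 ± 5.3 CPM in the gland (−1.43 ± 0.14, adjusted p = 2.38e-06), and mRpL12 75.2 and 112.5 CPM (−0.98, adjusted p = 2.95e-05). mRpS18B, mRpL46 and mRpS11 fell by 1.38, 1.31 and 1.32. mRpL34 was among the 11 members not called, at 71.6 CPM in circulation and 59.4 CPM in the gland (−0.12, adjusted p = 0.565). Other members had higher estimates, 2 of them above 0 and up to 0.30. Cytosolic ribosomal protein genes were lower in 82 of 87 and higher in 2.

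The cells of the 2 tissues differed in their markers at both ages. At 96 h AEL plasmatocyte markers summed to 13418 to 23732 CPM in circulation and 2757 to 6268 CPM in the gland, prohemocyte markers to 577 to 717 and 3633 to 4393 CPM, and crystal cell markers to 2197 to 13003 and 1230 to 2391 CPM. Markers of other tissues were also higher in circulation, with 26.0 to 886 CPM against 0.139 to 1.38 CPM for fat body, 56.9 to 109 against 3.18 to 9.19 CPM for neurons and 194 to 260 against 7.52 to 133 CPM for muscle, as were mitochondrially encoded transcripts, with 58251 to 79076 against 30162 to 49458 CPM. Plasmatocyte markers at 120 h AEL had 11632 to 21824 CPM in circulation and 2415 to 4861 CPM in the gland, prohemocyte markers 490 to 841 and 4841 to 7448 CPM, fat body markers 191 to 224 and 0.249 to 0.864 CPM, muscle markers 115.1 to 322.2 and 7.92 to 11.7 CPM, and mitochondrially encoded transcripts 55958 to 67021 and 25971 to 38192 CPM. The part of these in the members' differences was not tested.

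At 120 h AEL the direction between circulation and gland depended on the scaling. With TMM 9 members were higher and 14 lower (27.8% of genes higher, 23.8% lower and 51.5% called, median −0.04 beside 0.07 for all genes), whereas on library totals 43 were higher and 0 lower, with a members' median of 0.47 beside 0.58 for all genes, of which 51% were then called higher. The summed level was 1.39 times that of the gland without overlap. mRpL34 had 95.6, 74.9 and 92.1 CPM in circulation and 19.6, 26.6, 21.9 and 31.3 CPM in the gland (1.31 ± 0.17, adjusted p = 2.71e-05), without overlap. mRpL52, mRpS14 and mRpL9 rose by 0.58, 0.52 and 0.52, and mRpL39 fell by 0.86 on the TMM scale. The 23 calls were 14 without gland library 1, and 13, 15 and 15 without circulating library 1, 2 or 3.

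The difference between circulation and gland was higher at 120 than at 96 h AEL in 42 members and lower in 0, with all 72 estimates above 0 (interaction of tissue and time, 7.04% of genes higher, 9.14% lower and 16.2% called, median 0.67). Library totals gave 50 higher and 0 lower, where 9.3% of all genes were higher. The difference of effects was 1.43 ± 0.24 for mRpL34 (adjusted p = 0.00324), 1.23 for mRpL36 (adjusted p = 0.00392) and 1.00 ± 0.18 for mRpL12 (adjusted p = 0.00432). The 42 calls were 22 without circulating library 3 of 96 h and 25 without circulating library 3 of 120 h AEL. At 120 h AEL, 28 of the DNA replication genes and 27 of the mitosis genes were higher in circulation and none lower.

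Next, cells were split by the marker transcripts they held. Tep4 marks prohemocytes, the undifferentiated cells of the gland, Hml (Hemolectin) marks maturing and plasmatocyte cells, and atilla marks lamellocytes, the flat cells that encapsulate wasp eggs. A cell counted as positive with at least 1 UMI, so that a negative cell is not one that lacks the gene, and 55.3 to 83.9% of cells of normal glands held UMIs of both Tep4 and Hml. The part of free RNA in these calls was not tested. Only cells with 1 of the pair were compared, in libraries with at least 20 cells of the class, or of both classes where the 2 were set against each other.

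Within Tep4+ Hml- cells, 60 of 72 members were lower at 120 than at 96 h AEL and 0 higher, where 24.6% of the 5346 genes tested were lower and 50.2% called (median −0.77). mRpL34 averaged 16.5 ± 1.8 CPM at 120 h and 60.0 ± 14.1 CPM at 96 h (−1.71 ± 0.18, adjusted p = 1.24e-06), and mRpL12 59.6 ± 7.0 and 140.9 ± 18.3 CPM (−1.07 ± 0.15, adjusted p = 1.46e-05). mRpS10, mRpS30, mRpL36 and mRpL44 fell by 1.49, 1.41, 1.39 and 1.24, and mRpS5 and mRpL11, at −0.30 and −0.35, again did not pass the test. Against 72 h AEL 51 members were lower and 0 higher (25% of genes lower, 49.6% called), with mRpL34 at −1.94 ± 0.18, and 30 were lower without the low-count filter. Between 96 and 72 h AEL 0 were called by edgeR (2.47% of genes higher, 3.82% lower and 6.29% called), with 11 at an unadjusted p under 0.05. DESeq2 called 1, mRpL12, and so did edgeR for 1 member without library 4 of 120 h AEL. Replication genes fell over the later step in 29 of 31 tested in these cells, mitosis genes in 26 of 29.

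Within Hml+ Tep4- cells fewer members were called. From 96 to 120 h AEL 19 members fell and 0 rose, where 9.35% of the 5552 genes tested fell and 24.3% were called (median −0.31). mRpL34 averaged 29.2 ± 7.7 CPM at 120 h and 59.2 ± 14.1 CPM at 96 h (−0.92 ± 0.22, adjusted p = 0.00303), and mRpS30, mRpS21 and mRpS31 fell by 0.77, 0.77 and 0.75. mRpL12 averaged 78.3 ± 9.5 and 98.9 ± 9.7 CPM and was not called (−0.23 ± 0.14, adjusted p = 0.271). Without library 4 of 96 h 12 were called, and without library 3 of 120 h AEL 9. Against 72 h AEL 9 fell (7.4% of genes fell, 17.5% were called). At 72 h AEL only libraries 1, 2 and 4 held at least 20 Hml+ Tep4- cells, and none held more than 50. The part of these low cell numbers in the calls against 72 h was not tested. Between 96 and 72 h AEL edgeR called 0, with 6 at an unadjusted p under 0.05, DESeq2 called 0, and 2.74% of all genes were called. In these cells 8 of 34 replication genes and 7 of 30 mitosis genes fell from 96 to 120 h.

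**Figure D4:**
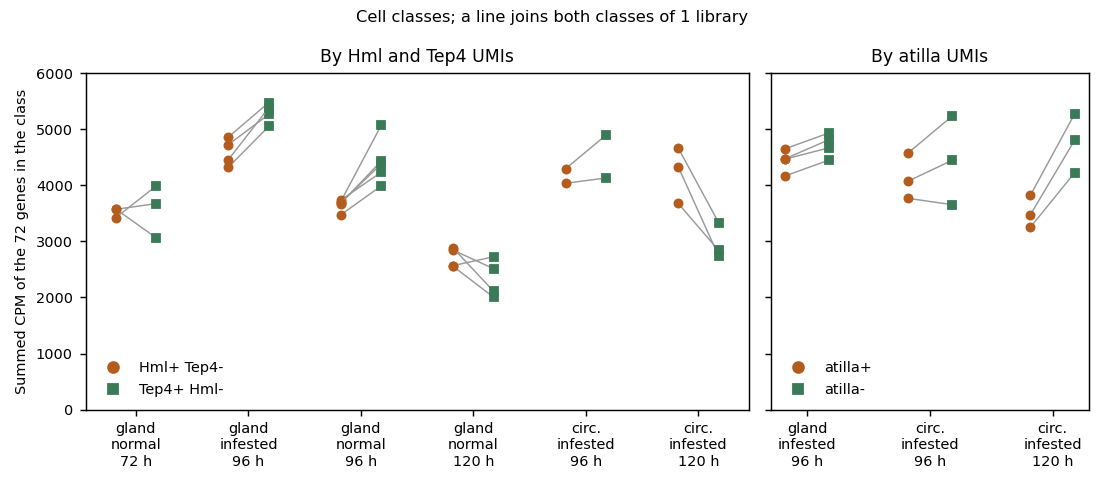
Summed level of the 72 genes (y axis, CPM) in Hml+ Tep4- and Tep4+ Hml- cells of the same library (left) and in atilla+ and atilla- cells (right). Lines join the classes of 1 library; in normal glands the Hml+ Tep4- cells are lower in 5 of 5 libraries at 96 h AEL and higher in 3 of 4 at 120 h AEL.

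The order of the 2 classes changed with age. At 96 h AEL Hml+ Tep4- cells had summed levels of 3673, 3472, 3708, 3736 and 3687 CPM, against 4432, 3990, 5068, 4233 and 4380 CPM in Tep4+ Hml- cells of the same libraries, lower in 5 of 5. At 120 h AEL they had 2844, 2881, 2555 and 2569 CPM, against 2513, 2110, 2004 and 2727 CPM, higher in 3 of 4. Replication genes at 120 h summed to 1150, 1197, 945 and 1085 CPM in Hml+ Tep4- and 633, 554, 435 and 793 CPM in Tep4+ Hml- cells, higher in the Hml+ Tep4- class in every library. The median cell held 2692 to 4658 UMIs in the Hml+ Tep4- class and 3626 to 7502 in the Tep4+ Hml- class at 120 h. Class status was therefore also called on each cell thinned to 2000 UMIs. Cells with fewer UMIs were left out, and the members' levels still came from all UMIs of a cell. With that status the Hml+ Tep4- class was higher in 4 of 4 libraries at 120 h and still in 0 of 5 at 96 h AEL.

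Within libraries, the test of Hml+ Tep4- against Tep4+ Hml- cells called 29 members lower and 0 higher at 96 h AEL (15.2% of genes lower, 32.2% called, median −0.33). mRpL12 averaged 98.9 CPM in Hml+ Tep4- and 140.9 CPM in Tep4+ Hml- cells (−0.55 ± 0.10, adjusted p = 1.56e-04), lower in 5 of 5 libraries. mRpL44, mRpL2, mRpS22 and mRpL39 fell by 0.93, 0.79, 0.77 and 0.74. Without library 2 of 96 h 18 were called. At 120 h AEL 3 were higher and 0 lower (9.26% of genes higher, 19.6% called): mRpL34, at 29.2 and 16.5 CPM, mRpL21, at 55.2 and 35.2 CPM, and mRpL55, at 58.6 and 40.1 CPM, each higher in 4 of 4 libraries. Library totals called 13 higher, where 14.2% of all genes were higher, and the 3 were 1 without library 3 and 9 without library 4.

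At 72 h AEL 5 were lower and 0 higher (8.93% of genes lower, 15.4% called), but without library 1, 2 or 4, the only 3 with both classes, the count was 0, 2 or 1. Across the 12 libraries and all ages 6 were lower (13.2% of genes lower, 24.6% called, median −0.17), a direction that turned on library totals, with 3 higher and 1 lower (17.5% and 8.16% of all genes). That count was 3 without library 2 or 4 of 96 h and 16 or 14 without library 2 or 3 of 120 h AEL. mRpL45 led it, with 32.0 ± 11 CPM in Hml+ Tep4- and 48.2 ± 16.3 CPM in Tep4+ Hml- cells (SD, n = 12 each; −0.54 ± 0.12, adjusted p = 0.0025), and was higher in the Hml+ Tep4- class in 2 of 12 libraries.

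Whether the difference between the classes changed with age was itself tested, but not whether its direction turned. The difference between the classes was higher at 120 than at 96 h AEL in 19 members and lower in 0 (7.79% of genes higher, 19.8% called, median 0.47). It was 0.84 ± 0.15 for mRpL12 (adjusted p = 4.5e-04), 1.34 for mRpL44, 1.02 for mRpL39 and 0.67 ± 0.21 for mRpL34 (adjusted p = 0.0224). The count was 8, 12 and 34 without library 2, 3 or 4 of 120 h AEL, 12 without the low-count filter and 30 after thinning. Replication genes behaved likewise in 21 of 37 and ribosome biogenesis genes in 21 of 31, none in the opposite direction. Against 72 h AEL 4 members were higher (6.5% of genes higher, 11.6% called). That count was 1 without library 1 or 2 of 72 h, 2 without library 2 or 4 of 96 h or library 2 or 3 of 120 h, and 10 without library 4 of 120 h AEL.

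Cells with and without atilla UMIs were compared in infested larvae. In infested glands atilla+ cells had 4169, 4475, 4652 and 4468 CPM, against 4453, 4817, 4938 and 4672 CPM in atilla- cells, lower in 4 of 4 libraries. 21 members were lower and 0 higher (17.4% of the 6579 genes tested lower, 35.2% called, median −0.11), with 12 called without library 3 and 7 by DESeq2. mRpL1 averaged 37.6 CPM in atilla+ and 47.7 CPM in atilla- cells (−0.35 ± 0.08, adjusted p = 0.0013), and mRpL12 110.6 and 127.2 CPM (−0.22, adjusted p = 0.00406). mRpS31, mRpL44 and mRpS26 each fell by 0.33.

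In infested circulation at 120 h AEL, where 74.3 to 87.6% of cells held atilla UMIs, atilla+ cells had 3824, 3477 and 3254 CPM, against 5273, 4803 and 4223 CPM in atilla- cells. All 3 libraries showed the lower level in atilla+ cells. With TMM 17 members were lower and 4 higher (25.4% of the 7487 genes lower, 29.6% higher and 55% called), and on library totals 62 were lower and 0 higher, where 46.7% of all genes were lower. Without the low-count filter the direction turned, with 10 higher and 2 lower, and DESeq2 called 6 lower and 1 higher. The 4 that were higher, mRpL22, mRpL40, mRpL41 and mRpL35, turned to below 0 on library totals, and their CPM was no higher in atilla+ cells (mRpL22 94.1 and 94.9 CPM, mRpL35 72.4 and 78.7 CPM). Among those that fell, mRpS10 averaged 42.9 and 73.5 CPM and mRpL44 19.3 and 33.5 CPM. The count was 4 without library 1 and 11 without library 2. The median atilla+ cell held 7237 to 7502 UMIs, against 3704 to 3927 in atilla- cells, and the part of depth was not tested.

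**Figure D5:**
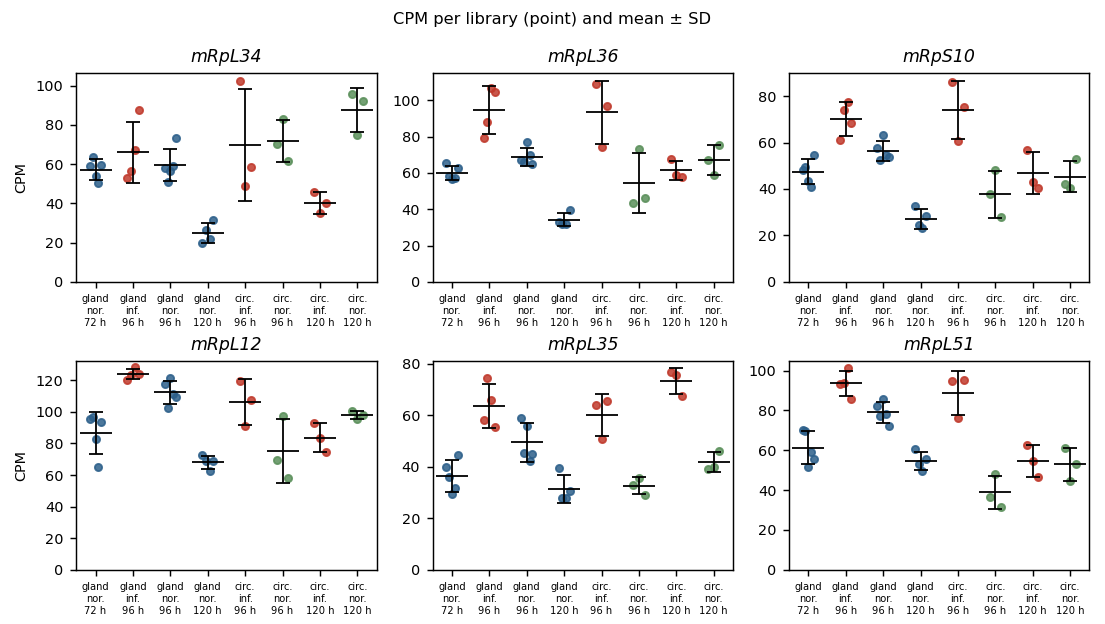
Level (y axis, CPM) of mRpL34, mRpL36, mRpS10, mRpL12, mRpL35 and mRpL51 in the 8 conditions (x axis). Points are libraries and bars mean ± SD. By mean, mRpL34 is lowest in normal glands at 120 h AEL (libraries 19.6 to 31.3 CPM). Its mean is highest in normal circulation at the same age (libraries 74.9 to 95.6 CPM). Its highest single library, at 102.2 CPM, is in infested circulation at 96 h AEL.

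The level of mRpL34 had the order of the members' sum over the ages of normal glands, but not in circulation at 120 h AEL. In infested glands it had 52.7, 56.3, 67.2 and 87.4 CPM, and it averaged 57.2 ± 5.2, 59.4 ± 8.2 and 24.9 ± 5.2 CPM in glands of normal larvae (72, 96 and 120 h AEL). In circulation at 120 h it averaged 40.2 ± 5.4 CPM in infested and 87.5 ± 11 CPM in normal larvae, whereas the members' sums overlapped between these groups. mRpL36 had 79.3, 88.1, 106.9 and 104.8 CPM in infested glands, above each of the normal glands of 96 h AEL, though it was not called there (0.29 ± 0.10, adjusted p = 0.0722). The gland level of mRpL35 at 120 h AEL was 39.3, 27.7, 27.9 and 30.4 CPM, against 58.7, 45.4, 55.9, 42.1 and 44.9 CPM at 96 h, and its highest level, 67.3 to 76.7 CPM, was in infested circulation at 120 h AEL.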

How the data were processed

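Single-cell RNA was measured by Drop-seq in 30 libraries of Oregon-R larvae. Per the labels and the study's methods, the authors processed reads with Drop-seq tools, aligned them with STAR 2.5.3a to BDGP6 and used Picard, and deposited raw UMI counts per gene and cell barcode, not normalized. Tables of infested glands were deposited after cell filtering (10179 barcodes) and were not filtered again. Elsewhere cells with 400 to 5000 genes, UMIs up to the mean plus 2 SD and mitochondrial UMIs up to 10% (gland) or 20% (circulation) were kept. Scrublet (scanpy 1.11.5) marked 0.380% of all cells (0 to 11.0% per library), too few for a working doublet call, so no doublets were removed; leaving out the marked cells moved no count of called members by over 1.5 times.

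UMIs were summed per library, or per library and class. CPM are shares of all summed UMIs. Tests used edgeR 4.0.16 in R 4.3.3 (TMM, low-count filter, robust quasi-likelihood fit), with Benjamini-Hochberg adjustment over all genes tested and a threshold of 0.05. The 3 normal gland ages shared 1 fit, the 4 circulating groups another, and circulation and gland of normal larvae at 96 and 120 h AEL another; infested glands were fitted with normal glands of 96 h AEL over genes listed in both, and classes of the same library were compared with the library as a block. DESeq2 1.42.0 was an alternative. The edgeR step was tested on simulated counts first. Python 3.11.15 with numpy 2.4.6, pandas 2.3.3 and scipy 1.17.1 did the rest. A total of 0 sample columns was left unused. SDs and SEs cover the spread between libraries, which the labels call biological replicates, and no 2 libraries agreed within sampling noise.

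Named per comparison were the 4 largest rises and 4 largest falls among called members whose higher group averaged 10 CPM or more, 10 members chosen by role, and these genes across comparisons. The members, lists and rules were chosen with earlier results of these data known. Alternatives covered scaling, low-count filter, tool, cell filters, doublets, shared barcodes, thinning, class cut and leaving out each library.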

Additional observations from a re-analysis of the deposited data

Results flagged for a closer look

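In groups of 4 or 5 libraries, 9 of 176 tested sets of values of a member held a library far from the others (Dixon's 95% critical value), where chance gives about 1 in 20. In infested glands, mRpL27, near the peptidyl transferase centre, had 95.7 CPM in library 3 against 80.0 to 81.9 CPM in the others, mRpL40 had 59.4 CPM in library 4 against 45.2 to 47.3 CPM, and mRpS5 had 46.5 CPM in library 1 against 70.5 to 75.5 CPM. In normal glands at 72 h AEL mRpL45 had 35.5 CPM in library 3 against 45.5 to 48.8 CPM, and at 96 h mRpL10 had 52.7 CPM in library 3 against 38.2 to 42.4 CPM. At 120 h AEL library 4 was high for mRpL36 (39.5 CPM against 31.9 to 33.2), mRpL40 (36.1 CPM against 26.3 to 27.8) and mRpS5 (56.5 CPM against 38.0 to 39.2), and library 1 for mRpL41 (35.3 CPM against 25.3 to 25.8).

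By the test of the difference itself (edgeR, adjusted over all genes), the effect of infestation in circulation differed between 96 and 120 h AEL in 13 of 72 members, beside 12.5% of all genes. The difference between circulation and gland differed between those ages in 42, beside 16.2% of all genes. The difference between Hml+ Tep4- and Tep4+ Hml- cells of the gland differed in 19 between 120 and 96 h, beside 19.8% of all genes, and in 4 between 120 and 72 h AEL, fewer in proportion than the 11.6% of all genes.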

How the results depend on the processing

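Counts below are of called members, with the value of the reported setting in parentheses. On library totals with no scaling factor the counts were 19 (6) for 96 against 72 h AEL in the gland, 20 (2) for infested glands, 26 (55) and 8 (20) for infested circulation at 96 and 120 h, 2 (13) for the interaction of infestation and time, 34 (61) for circulation against gland at 96 h, 17 (32) for Hml+ Tep4- circulating cells at 96 h, 62 (21) for atilla+ cells in circulation, and 2 (5) and 13 (3) for the class difference at 72 and 120 h. The direction turned for circulation against gland at 120 h, with 43 (23), and for the 2 classes over all ages, with 4 (6). Of named genes, mRpL11 (0.44), mRpS29 (0.22) and mRpS7 (0.48) turned in circulation against gland at 120 h, and mRpL2 (−0.36), mRpL22 (−0.0089), mRpL35 (−0.12), mRpL40 (−0.014) and mRpL41 (−0.10) in atilla+ circulating cells.

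Without a low-count filter the counts were 33 (58), 20 (42), 2 (13), 11 (6), 30 (51), 5 (9), 12 (19), 2 (4) and 10 (6) for the gland 120 against 96 h, 120 against 72 h, the interaction of infestation and time, the 2 classes, Tep4+ Hml- and Hml+ Tep4- cells at 120 against 72 h, the class difference at 120 against 96 and 72 h, and Hml+ Tep4- circulating cells at 120 h, and 12 (21) with more higher than lower for atilla+ circulating cells. DESeq2 gave 4 (2) for infested glands, 1 (0) for Tep4+ Hml- cells at 96 against 72 h, 7 (21) for each atilla comparison, 3 (5) for the class difference at 72 h and 2 (4) at 120 against 72 h. A single fit of all 30 libraries gave 1 (2) for infested glands. With class status called on cells thinned to 2000 UMIs, and members counted on all UMIs, the counts were 34 (6) for the 2 classes, 4 (0) for Tep4+ Hml- cells at 96 against 72 h, 18 (9) and 1 (0) for Hml+ Tep4- cells at 120 and 96 against 72 h, 27 (5), 48 (29) and 5 (3) for the class difference at 72, 96 and 120 h, 30 (19) and 15 (4) for its change, and 3 (6), with more lower than higher, for Hml+ Tep4- circulating cells at 120 h. With at least 2 UMIs to call a class, they were 20 (6), 14 (9), 15 (5), 7 (3), 30 (19) and 16 (4) for the 2 classes, Hml+ Tep4- cells at 120 against 72 h, the class difference at 72 and 120 h and its change.

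Replicate numbers did not pair the samples: the correlations of same-numbered libraries ran over −0.48 to 0.33, and no pair of groups exceeded 0.1 throughout. With the replicate block the counts were 13 (20) for infested circulation at 120 h, 4 (13) for the interaction of infestation and time, 14 (23) for circulation against gland at 120 h, 22 (42) for its interaction with time and 10 (19) for Hml+ Tep4- cells at 120 against 96 h.

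The summed level with TMM was 3885, 4277 and 3134 CPM in normal glands at 72, 96 and 120 h and 2339 and 2797 CPM in normal circulation at 96 and 120 h. Without mitochondrial and rRNA genes it was 4893 CPM in infested glands and 3845 CPM in normal circulation at 120 h. Without these and the cytosolic ribosomal proteins it was 5806, 6581 and 4469 CPM in normal glands, 7564 CPM in infested glands, 6801 and 4568 CPM in infested and normal circulation at 96 h, and 4990 and 5405 CPM at 120 h.

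Leaving out 1 library gave 1 to 10 calls for 96 against 72 h in the gland, 52 to 61 for 120 against 96 h, 33 to 50 for 120 against 72 h, 1 to 4 for infested glands, 38 to 56 and 7 to 22 for infested circulation at 96 and 120 h, 1 to 18 for their interaction, 56 to 62 and 13 to 28 for circulation against gland, 22 to 50 for its interaction, and 3 to 16 for the 2 classes. It gave 38 to 55, 0 to 1 and 54 to 64 for Tep4+ Hml- cells (120 against 72, 96 against 72, 120 against 96 h), 6 to 9, 0 to 0 and 9 to 23 for Hml+ Tep4- cells, 12 to 22 and 4 to 20 for atilla+ cells of gland and circulation, 0 to 6, 18 to 34 and 1 to 9 for the class difference at 72, 96 and 120 h, 8 to 34 and 1 to 10 for its change, and 7 to 41 and 3 to 10 for Hml+ Tep4- circulating cells. With 3 of 96 against 72 h, those without gland library 5 of 72 h or 1 or 5 of 96 h, more members were lower than higher, and 15 without circulating library 2 were mostly higher. Sums ran over 3279 to 3462, 3816 to 3974 and 2526 to 2660 CPM in normal glands, 4591 to 4758 CPM in infested glands, 4023 to 4673 and 3479 to 3851 CPM in infested circulation, and 2819 to 3382 and 3483 to 3720 CPM in normal circulation. The cause of these changes was not tested. DESeq2's size factors, all barcodes, the doublet settings and leaving out shared barcodes moved no count beyond 1.5 times. The library with the fewest UMIs was in normal circulation at 96 h AEL, and some classes at 72 h AEL held few cells. The part of depth was not tested.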
